A study of Mus musculus with 48 samples.

Results

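The genes of sterol and fatty acid synthesis were followed in the mouse colon over the circadian day. They were 30 named genes, found by symbol (GENCODE vM21) among the 55401 genes of the count table, and all 30 were present. The count table held colon RNA of 48 male mice, 4 per genotype at each of 6 circadian times (CT1, CT5, CT9, CT13, CT17 and CT21), killed on the second day of constant darkness. Control mice carried the floxed gene on both alleles (Bmal1fl/fl, Villin wt/wt), and Bmal1iec-/- mice were their littermates with Bmal1fl/fl and 1 copy of Villin-Cre, which acts in intestinal epithelial cells. All mice had a C57BL/6J background, were 18 to 20 weeks old, lived alone with a running wheel and ate chow freely. The whole colon was sequenced, so muscle, connective tissue and immune cells kept Bmal1 in both genotypes, and fewer cells of a type cannot be told apart from less RNA per cell.

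Cholesterol is built from acetyl-CoA through the mevalonate pathway, squalene and lanosterol. Fatty acids are built from the same acetyl-CoA, which Acly makes from citrate, by carboxylation, chain synthesis, elongation and desaturation. Transcription of both pathways is driven by the SREBP factors (Srebf1, Srebf2). Scap carries these from the endoplasmic reticulum for cleavage when sterols are low, and the Insig proteins hold them back when sterols are high. By role, the 30 genes comprised 16 sterol enzymes, 5 regulators (Srebf1, Srebf2, Insig1, Insig2, Scap) and 6 fatty acid enzymes (Fasn, Acaca, Scd1, Scd2, Elovl6, Acly). The other 3 (Acat2, Ggps1, Stard4) form the group labelled branch and transfer in the figures, a label that does not describe Acat2.

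The libraries held 3144997 to 4785844 counted reads, with a median of 3868331. Bmal1 itself (Arntl) ran from 257.6 ± 17.9 normalized counts (SD, n = 4) at CT1 to 26.2 ± 8.74 at CT9 in controls. In Bmal1iec-/- mice the Arntl means stayed between 112.5 (CT9) and 175.6 (CT1). Results are given over 46 mice, without Bmal1iec-/- mice SV384 and SV385 at CT1. Their exclusion is an inference, from size factors behind a rhythm table of the study that match those of the other 46 mice, and the study names no excluded mouse. The smooth muscle markers summed to 2686 normalized counts in SV385, against 9992 to 16538 in the other Bmal1iec-/- mice of the 46, while SV384 had 10454. Markers of colon epithelium summed to between 77541 and 130084 in the 46 mice, and 7 markers of squamous and sebaceous epithelium to at most 19.4, none of which passed the filter on low counts.

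Per kilobase of exon, the genes spanned a wide range in Bmal1fl/fl mice. Scd2, a stearoyl-CoA desaturase, was at 319 normalized counts per kb, Acly at 208, the sterol carrier Stard4 at 148 and Hmgcs1, the HMG-CoA synthase of the mevalonate pathway, at 125. The lowest was Fdps, farnesyl diphosphate synthase, at 4.58 per kb. All 30 genes passed the filter on low counts, and none had 3 counts or fewer in any mouse. Some counts can hold reads of similar or overlapping genes. Of the 75-base stretches of their transcripts, 33.9% occur elsewhere for Acat2, 26.8% for Acaca, 23.5% for Fdps and 16.7% for Idi1. In Fdps, 26.7% of exon bases overlap another gene on the same strand (Gm43738). In Fdft1, 18.3% overlap Ctsb on the opposite strand, and whether counting used the strand is not given in the sources used here.

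RefSeq promoter windows (GRCm38.p6, 250 bases before to 50 after each start) were at hand for 24 of the 30 genes. A sterol response element (TCACNCCAC, either strand) was found in the window of Hmgcs1 alone, at 137 bases before the start, against 1.44% of 27025 genes. The circadian E-box CACGTG was found for 5 (Hsd17b7, Sc5d, Dhcr7, Insig1 and Scap), against 8.09% of genes, and the NF-Y box CCAAT for 20, against 41.1%. TNAGGTCA, the element shared by the Rev-erb and ROR factors, was found for Dhcr7, Elovl6 and Insig1 (5.17% of genes), in Insig1 in part over the E-box. The D-box TTATGNAA was found for 0 (3.99% of genes). Upstream stretches of Hmgcs1, Insig1 and Sc5d are shown because Hmgcs1 and Insig1 were rhythmic with an early peak in both genotypes and Sc5d, with the same E-box as Insig1, peaked at night. They stop at the first base annotated as transcribed, and capitals mark the sterol response element in Hmgcs1 (chr13:119690101-119690350, plus strand) and the E-box in Insig1 (chr5:28071162-28071362, plus strand) and Sc5d (chr9:42264301-42264550, minus strand).
Hmgcs1: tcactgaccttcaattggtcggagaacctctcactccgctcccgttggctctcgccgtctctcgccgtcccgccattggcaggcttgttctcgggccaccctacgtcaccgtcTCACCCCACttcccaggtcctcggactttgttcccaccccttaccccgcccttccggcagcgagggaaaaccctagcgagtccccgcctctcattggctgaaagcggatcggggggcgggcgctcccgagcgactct
Insig1: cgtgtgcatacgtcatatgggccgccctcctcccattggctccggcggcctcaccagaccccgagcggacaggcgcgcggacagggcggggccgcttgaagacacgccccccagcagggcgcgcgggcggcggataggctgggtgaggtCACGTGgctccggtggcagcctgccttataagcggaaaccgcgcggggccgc
Sc5d: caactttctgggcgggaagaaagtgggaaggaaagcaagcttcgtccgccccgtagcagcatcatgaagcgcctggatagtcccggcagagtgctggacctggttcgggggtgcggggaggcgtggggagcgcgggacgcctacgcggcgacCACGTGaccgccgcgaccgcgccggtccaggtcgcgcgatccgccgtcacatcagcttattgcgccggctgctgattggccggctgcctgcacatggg

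In Bmal1fl/fl mice, the fitted peaks of the rhythmic genes of the group ran from 15.9 h (Ggps1) through the night to 5.12 h (Nsdhl). By JTK_cycle (24 h period, q under 0.05 over 14475 genes), 12 of 30 genes were rhythmic, which is 40% against 40.6% of all genes. The share is thus that of the colon as a whole, and the timing is what follows. A cosine fitted in edgeR called 20 of 30, against 49.4% of all genes. Of these 20, 13 had a fitted peak from CT23 to CT6 (Hmgcs1, Idi1, Fdps, Fdft1, Sqle, Lss, Msmo1, Nsdhl, Hsd17b7, Acat2, Stard4, Insig1 and Acly), and the other 7 from CT15 to CT23 (Sc5d, Dhcr7, Ggps1, Srebf2, Acaca, Scd2 and Elovl6). The cut at CT23 serves description, as no wide gap in the peaks parted these sets. The step across it, from Acaca to Sqle, was smaller than that from Ggps1 to Elovl6 within the night set. The group mean was lowest at CT13 for 10 of the 20, all but Sc5d from the set with the early peak. How many of all rhythmic genes peaked or were lowest at these times was not counted. The timing therefore cannot be called particular to this group.

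Hmgcs1 had normalized counts of 1124, 1075, 1118 and 551 in the 4 Bmal1fl/fl mice at CT1 and of 268, 360, 316 and 319 at CT13. Every CT1 mouse was above every CT13 mouse, and the means differed 3.06-fold. The fitted log2 amplitude (mean to peak) was 0.52 with a peak at 1.11 h, and the JTK_cycle q was 0.0176, which passed in 21 of 24 fits with a mouse left out. Fdft1, which joins farnesyl units into squalene, had 615, 635, 659 and 332 at CT1 and 218, 252, 184 and 203 at CT13. It peaked at 1.77 h (q = 0.0149), again without overlap between the 2 times. Sqle, the squalene epoxidase, had 387, 403, 399 and 250 at CT1 against 183, 197, 167 and 167 at CT13, with a peak at 23.2 h (q = 0.0176). Nsdhl, a dehydrogenase of sterol demethylation, was rhythmic with a smaller log2 amplitude of 0.23 and a peak at 5.12 h. In Hmgcs1, Fdft1 and Sqle the same mouse, SV469, was the low one at CT1.

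Insig1 had the largest amplitude of the 30 genes. Its normalized counts in Bmal1fl/fl mice were 863, 773, 562 and 393 at CT1, 256, 199, 465 and 182 at CT5, 561, 480, 342 and 244 at CT9 and 79.4, 76.8, 118 and 90.5 at CT13. They stayed low at CT17 (71.5, 252, 125 and 128) and CT21 (191, 261, 113 and 300). The CT1 mice were thus all above the CT13, CT17 and CT21 mice, and the highest mean was 7.11 times the lowest. The fitted log2 amplitude was 1.12 with a peak at 3.25 h (JTK_cycle q = 0.00649). Stard4, which carries sterols between membranes, had 1222, 1174, 1065 and 902 at CT1 and 682, 694, 635 and 573 at CT13, with a peak at 3.43 h (q = 0.00379). Nsdhl had 170, 173, 192 and 182 at CT5 and 121, 139, 120 and 130 at CT17, where its mean was lowest. Fdps, the gene with fewest counts, had 47.6, 37.2, 33.8 and 20.7 at CT1 and 7.30, 14.9, 11.4 and 8.62 at CT13, and the 2 times did not overlap. It fitted a log2 amplitude of 0.67 by the cosine (adjusted p = 0.0250), and its JTK_cycle q was 0.234.

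The genes with a night peak lay at other steps of the pathways. Dhcr7, a reductase of the last steps of cholesterol synthesis, had 345, 289, 316 and 318 normalized counts at CT9 and 546, 560, 508 and 604 at CT17 in Bmal1fl/fl mice. Its peak was at 18.6 h with a log2 amplitude of 0.45, and its JTK_cycle q of 4.67e-05 was the smallest of the group. Scd2 had 1501, 1608, 942 and 1071 at CT5 and 2340, 2527, 1924 and 2069 at CT21 (peak 18.1 h, q = 0.000448). In both genes the lower time lay wholly below the higher one. Ggps1, which makes the geranylgeranyl diphosphate used to prenylate proteins, had 199, 212, 212 and 179 at CT9 and 273, 255, 253 and 282 at CT17 (peak 15.9 h, q = 0.00315). Elovl6, an elongase, had 378, 472, 427 and 462 at CT9 and 563, 650, 603 and 683 at CT17 (peak 17.8 h, q = 0.00147), and Acaca, the acetyl-CoA carboxylase, had a log2 amplitude of 0.29 late in the night (q = 0.00176). Sc5d, a sterol desaturase upstream of Dhcr7, peaked at 20.7 h with a log2 amplitude of 0.17 (q = 0.00543).

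The factors that drive both pathways had small log2 amplitudes at the RNA level, 0.13 for Srebf2 and 0.10 for Srebf1. Srebf2 ran from 565.7 ± 76.0 normalized counts (SD, n = 4) at CT5 to 780.6 ± 33.6 at CT21 in Bmal1fl/fl mice and was called by the cosine (adjusted p = 0.0267) but not by JTK_cycle (q = 0.164). Srebf1 means lay between 194.3 and 271.9 and passed neither test, with a cosine adjusted p of 0.414. Pmvk, Mvd, Tm7sf2, Ebp, Mvk, Fasn, Scd1, Insig2 and Scap were not called by either test in Bmal1fl/fl mice, nor Srebf1. Fasn, the fatty acid synthase, lay between mean counts of 501.5 at CT5 and 757.3 at CT21, with 473 to 1150 in the 4 mice at CT21 alone.

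**Figure D1:**
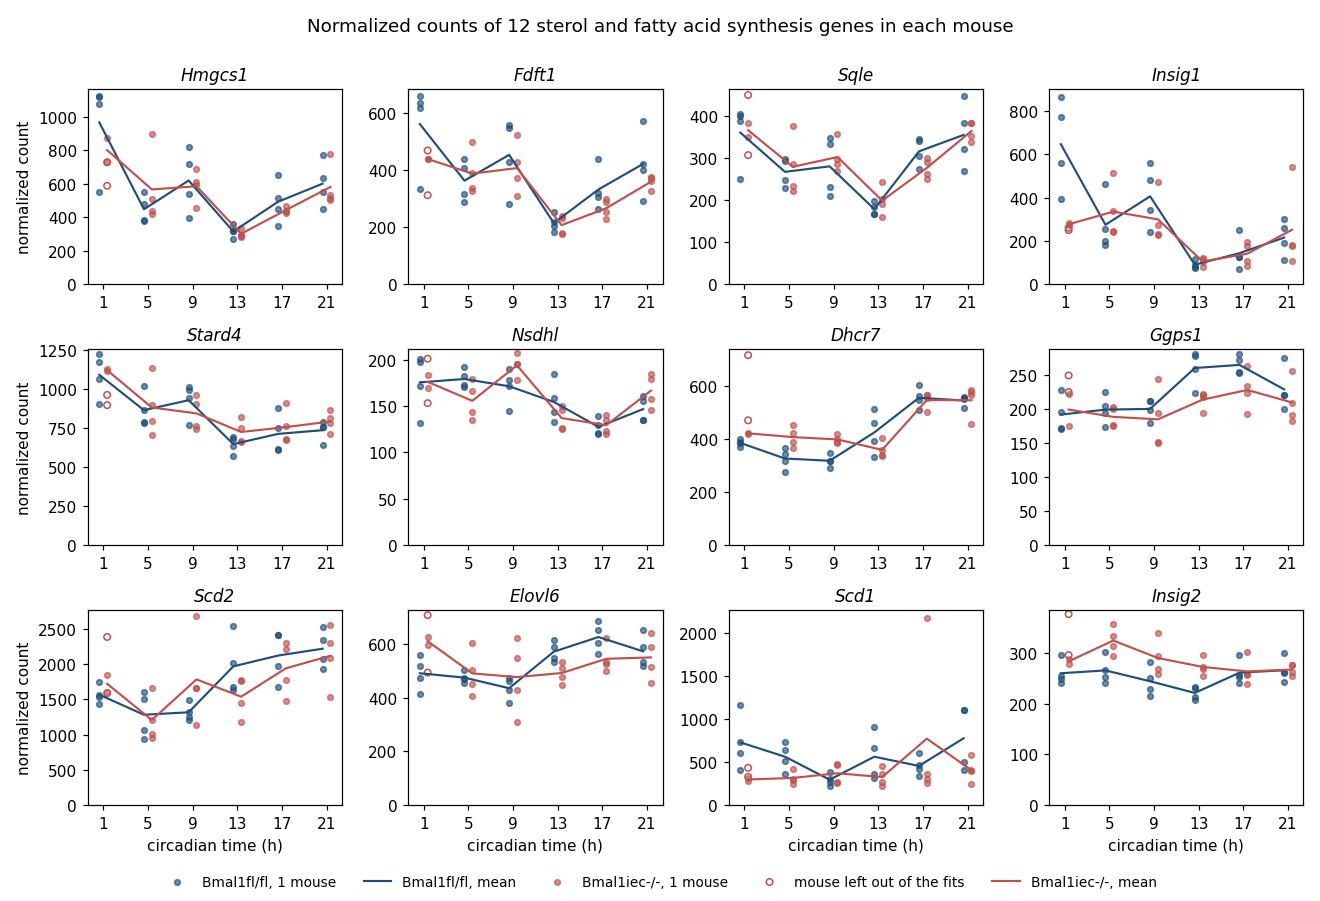
Normalized counts (y axis) of 12 genes against circadian time in hours (x axis), with 1 point per mouse, lines through the group means of the 46 mice, and open circles for mice SV384 and SV385, which were left out of the fits. Hmgcs1, Fdft1, Sqle and Insig1 were lowest at CT13 in both genotypes, and 1 Bmal1iec-/- mouse at CT17 stood at 2167 for Scd1.

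In Bmal1iec-/- mice Hmgcs1, Idi1, Fdft1, Sqle, Msmo1 and Insig1 again had fitted peaks in the first hours of the day, from 0.265 h for Sqle to 3.27 h for Insig1. By JTK_cycle 8 of 30 genes were rhythmic in Bmal1iec-/- mice, which is 26.7% against 15.4% of all genes, and 6 of them were rhythmic in both genotypes (Acaca, Dhcr7, Fdft1, Hmgcs1, Insig1 and Sqle). Without mouse SV437 the 8 became 3. With each of the 22 mice left out in turn, Dhcr7, Acaca and Fdft1 were called in 22 fits, Insig1 in 21, Hmgcs1 in 14, Msmo1 in 12 and Sqle and Idi1 in 5 each. The cosine called 13 of 30, against 26.8% of all genes, 11 of them in both genotypes. Hmgcs1 had 872 and 731 normalized counts in the 2 Bmal1iec-/- mice at CT1 (589 and 729 in SV384 and SV385) and 297, 336, 291 and 284 at CT13. Its log2 amplitude was 0.51 with a peak at 1.89 h, beside 0.52 and 1.11 h in controls. Insig1 had 273 and 282 at CT1 and 122, 117, 106 and 78.6 at CT13, so its CT1 mice lay above its CT13 mice but at less than the control level of CT1. Fdft1 had 438 and 438 at CT1 and 238, 177, 233 and 180 at CT13, with a log2 amplitude of 0.46 in both genotypes. Stard4 had 1114 and 1126 at CT1 and 662, 820, 751 and 663 at CT13. For each of these genes, every Bmal1iec-/- mouse at CT13 thus lay below the 2 Bmal1iec-/- mice at CT1.

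Over the 11 genes with a cosine rhythm in both genotypes, the fitted peaks differed by at most 1.93 h (Dhcr7). The median difference was 0.77 h, and the peak was later in Bmal1iec-/- mice for 8 of the 11. The amplitude was lower in Bmal1iec-/- mice for 18 of 30 genes (60%), against 67.6% of all genes tested, and the median ratio of amplitudes was 0.972, against 0.786 over all genes. The difference between these ratios was not tested. For Insig1 the log2 amplitude was 0.79 in Bmal1iec-/- mice and 1.12 in controls. For Dhcr7 it was 0.28 and 0.45, for Scd2 0.26 and 0.44, for Ggps1 0.14 and 0.25, and for Elovl6 0.14 and 0.24. Stard4, Nsdhl, Sc5d, Scd2, Ggps1 and Elovl6 passed JTK_cycle in controls and not in Bmal1iec-/- mice, and Idi1 and Msmo1 the reverse, which by itself shows no difference between genotypes.

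The change of rhythm was tested directly, by an F test in edgeR of genotype against the cosine terms. It called 0 of 30 genes, against 0.919% of all genes, with 3 at an unadjusted p under 0.05 and 0 called by DESeq2. These were Dhcr7 (edgeR, adjusted p = 0.105), Insig2 (unadjusted p = 0.0257) and Elovl6 (adjusted p = 0.407). Dhcr7 was called with all 48 mice (adjusted p = 0.0459) and without mouse SV421 (adjusted p = 0.0431). For Hmgcs1, Idi1, Fdft1, Sqle, Lss, Msmo1 and Hsd17b7 the unadjusted p was at least 0.687. Among the other genes with an early peak in controls, it was 0.337 for Acat2, 0.489 for Fdps, 0.491 for Stard4 and 0.583 for Insig1. For Nsdhl it was 0.757 and for Acly 0.770.

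**Figure D2:**
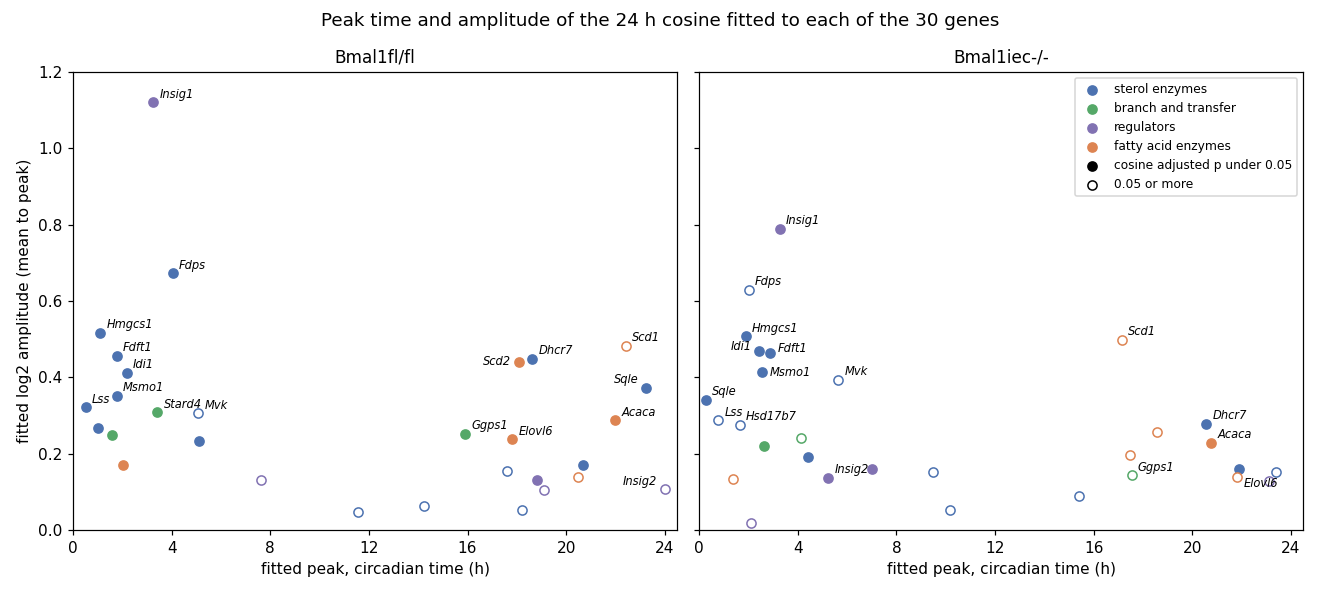
Fitted peak in hours of circadian time (x axis) against fitted log2 amplitude (y axis) of the 30 genes, in Bmal1fl/fl mice (left) and Bmal1iec-/- mice (right), coloured by role and filled where the adjusted p of the cosine was under 0.05. Insig1 stood highest in both panels, at 1.12 and 0.79, and the filled sterol enzymes other than Dhcr7 and Sc5d lay from CT23 to CT6.

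Night (CT13, CT17 and CT21) was compared with day (CT1, CT5 and CT9) in each genotype. In Bmal1fl/fl mice 15 of 30 genes were called, against 39.0% of all genes. Of them, 10 were lower at night (20% of all genes were) and 5 higher (19.1%). The lower ones were Insig1 (log2 fold change -1.56, SE 0.29, adjusted p = 4.33e-05), Fdps (-1.13, SE 0.28), Hmgcs1 (-0.53, SE 0.20), Idi1 (-0.52), Fdft1 (-0.51), Stard4 (-0.46), Msmo1 (-0.43), Nsdhl (-0.30), Acat2 (-0.27) and Acly (-0.18). The higher ones were Scd2 (0.60, SE 0.13), Dhcr7 (0.57, SE 0.09, adjusted p = 1.39e-06), Ggps1 (0.35), Elovl6 (0.33) and Srebf2 (0.16). With each of the 46 mice left out in turn, Insig1, Fdps, Fdft1, Stard4, Nsdhl, Scd2, Dhcr7, Ggps1 and Elovl6 were called in 46 of 46 fits, Msmo1 in 45, Acly in 43, Srebf2 in 40, Idi1 in 39, Hmgcs1 in 37 and Acat2 in 25. Leaving out SV454, SV455 or SV468, control mice of CT1, ended the calls of Hmgcs1, Idi1 and Acly. Hmgcs1 was then at an adjusted p of 0.0857, 0.0743 and 0.0862.

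In Bmal1iec-/- mice 7 of 30 genes were called, against 15.1% of all genes, and all 7 were lower at night (7.95% of all genes). They were Insig1 (-0.91, SE 0.30, adjusted p = 0.0360), Fdft1 (-0.55, SE 0.17), Msmo1 (-0.47), Acat2 (-0.33), Nsdhl (-0.28), Stard4 (-0.28) and Insig2 (-0.18), and 0 were higher (7.13% of all genes). With 1 mouse left out, Nsdhl was called in 46 of 46 fits, Fdft1 in 44, Stard4 in 43, Msmo1 in 40, Insig1 in 36, Insig2 in 33 and Acat2 in 15. The 7 became 12 without mouse SV471 and 2 without mouse SV477. Hmgcs1 stood at -0.50 (SE 0.21) in these mice and Idi1 at -0.51 (SE 0.20), close to their control values, with adjusted p of 0.103 and 0.0779. None of the night-high genes of the controls passed in Bmal1iec-/- mice, where Dhcr7 stood at 0.25, Scd2 at 0.27, Ggps1 at 0.20, Elovl6 at 0.05 and Srebf2 at 0.00. With 1 mouse left out, Dhcr7 was called higher in 8 of 46 fits (without SV468, SV421, SV424, SV395, SV448, SV449, SV450 or SV471), Ggps1 in 5 (without SV480, SV395, SV416, SV471 or SV418) and Scd2 in 1 (without SV400, adjusted p = 0.0253). The smallest adjusted p was 0.0187 for Dhcr7 and 0.0206 for Ggps1. The difference between genotypes was tested by the interaction in edgeR, which called 0 of 30, against 0.0553% of all genes, with 2 at an unadjusted p under 0.05 and 0 called by DESeq2. For Dhcr7 the interaction was -0.32 (SE 0.13, adjusted p = 0.462) and for Elovl6 -0.28 (SE 0.11, adjusted p = 0.457).

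Averaged over the 6 times, Insig2 was the only one of these genes called between genotypes. In edgeR with circadian time in the model, 1 of 30 genes was called, against 10.9% of all genes (5.32% higher and 5.63% lower in Bmal1iec-/- mice), with 4 at an unadjusted p under 0.05, and DESeq2 called 1. None of the 30 was called with a fold over 1.5, against 1.35% of all genes. The log2 fold change (Bmal1iec-/- over Bmal1fl/fl) was positive for 11 and negative for 19, with a median of -0.03. Insig2 is the other endoplasmic reticulum anchor of Scap beside Insig1. Its normalized counts averaged 252.8 ± 26.8 (SD, n = 24) in Bmal1fl/fl and 283.3 ± 30.5 (SD, n = 22) in Bmal1iec-/- mice, a log2 fold change of 0.17 (SE 0.04, adjusted p = 0.00485), and its mean was higher at 6 of 6 times. It was called in 46 of 46 fits with a mouse left out but not without the CT13 mice (0.13, adjusted p = 0.0757).

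For the other sterol genes the intervals bound the difference. The 95% interval of the fold was 0.852 to 1.12 for Hmgcs1, 0.934 to 1.12 for Sqle, 0.846 to 1.06 for Msmo1, 0.933 to 1.04 for Srebf2 and 0.903 to 1.06 for Srebf1. It was wider for Insig1, at 0.714 to 1.20, for Fdps, at 0.756 to 1.29, and for Mvk, at 0.922 to 1.28. For Fdft1 the interval was 0.793 to 1.01 and for Hsd17b7 0.789 to 0.964, without adjustment for the number of genes. Hsd17b7, which acts in sterol demethylation, stood at -0.20 (SE 0.07, adjusted p = 0.0669) and Ggps1 at -0.14 (SE 0.05, adjusted p = 0.0660). Hsd17b7 passed with all 48 mice (-0.22, adjusted p = 0.0332), without the CT5 or the CT21 mice and without SV469, SV420, SV444, SV471, SV477 or SV400. Ggps1 passed without the CT1 mice (-0.17, adjusted p = 0.0352) and without SV455, SV476, SV446, SV420, SV480, SV481, SV470 or SV418. Over all genes 10.9% were called between genotypes, 5.32% higher and 5.63% lower. Among cell type markers, Cdx2 was called higher and Epcam and Slc26a3 lower of 8 for colon epithelium. Of 5 for smooth muscle, Cnn1 and Myh11 were lower, with sums from 11313 to 16887 in Bmal1fl/fl and from 9992 to 16538 in Bmal1iec-/- mice. Dcn was the 1 of 5 fibroblast markers called (-0.22, adjusted p = 0.00938) and S100b the 1 of 4 for enteric nerve (-0.35, adjusted p = 0.0387), both lower. Of markers that passed the filter on low counts, none was called of 4 for macrophages, 2 for T cells and 2 for B and plasma cells. The part of these cell types in the results was not tested. Dhcr7 stood at 0.08 (adjusted p = 0.317) and passed without the CT13 mice (0.14, adjusted p = 0.0334).

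**Figure D3:**
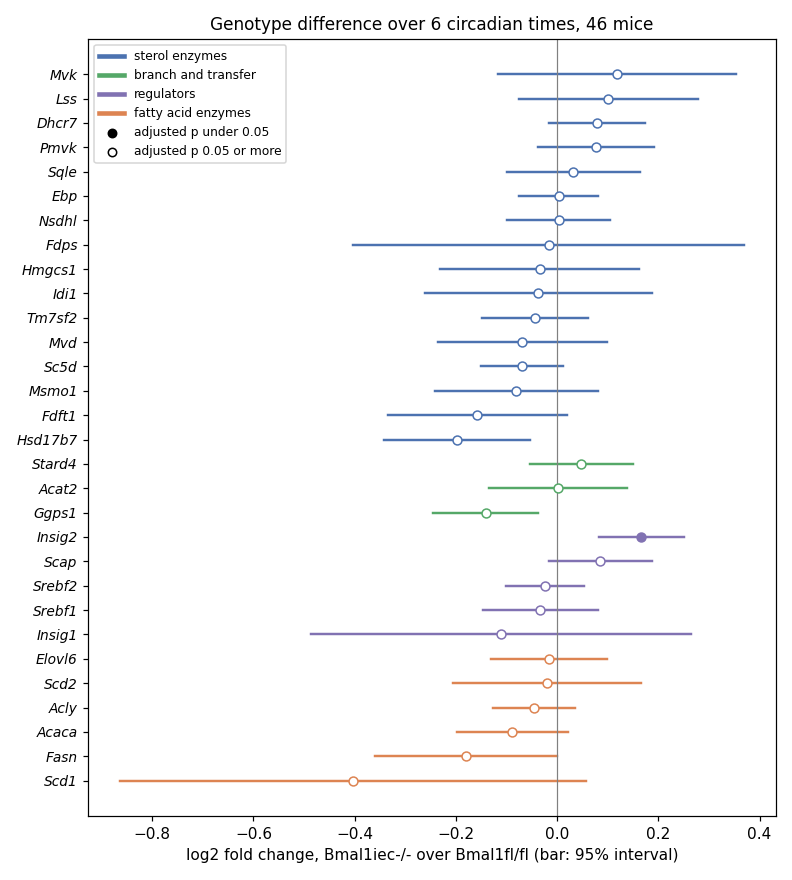
Log2 fold change of Bmal1iec-/- over Bmal1fl/fl mice (x axis) with its 95% interval (bars) for the 30 genes (y axis), coloured by role, over 46 mice. Insig2, at 0.17, is the filled point. All 6 fatty acid enzymes are open points below 0, with Scd1 lowest at -0.40 and Elovl6 and Scd2 close to 0 at -0.02.

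All 6 fatty acid enzymes had a negative genotype fold change and none was called. Their median was -0.07, beside 0.00 over all genes tested. Elovl6 (-0.02, SE 0.06) and Scd2 (-0.02, SE 0.09) were close to 0, and with all 48 mice Scd2 stood at 0.002. Scd1, the other main stearoyl-CoA desaturase, ran from 228 to 1167 with a median of 479 normalized counts in the 24 Bmal1fl/fl mice and from 228 to 2167 with a median of 312 in the 22 Bmal1iec-/- mice. The log2 fold change of Scd1 was -0.40 (SE 0.23, adjusted p = 0.283). The Bmal1iec-/- mice at CT17 had 361, 259, 300 and 2167, so SV481 alone stood apart. Without SV481 the log2 fold change of Scd1 was -0.65 (SE 0.16, adjusted p = 0.00593) and without all CT17 mice -0.67 (adjusted p = 0.0213). Fasn stood at -0.18 (SE 0.09, adjusted p = 0.205) and, without SV481, at -0.23 (adjusted p = 0.0519).

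The sum of the markers used for fat cells varied with Scd1 and Fasn from mouse to mouse. The 7 adipocyte markers (Adipoq, Plin1, Lep, Cidec, Cfd, Retn and Plin4) all passed the filter. They summed to between 124 and 1550 normalized counts, with a median of 381, in Bmal1fl/fl mice and to between 87.0 and 941, with a median of 180, in Bmal1iec-/- mice. Mouse SV481 was the highest of its genotype, at 941, where the other Bmal1iec-/- mice at CT17 had 259, 114 and 133. All 7 markers had a negative genotype fold change, and 1 was called (Cidec, -0.71, adjusted p = 0.0374), beside 10.9% of all genes. The log2 fold change was -1.23 (SE 0.57) for Cfd, -1.09 (SE 0.58) for Adipoq and -1.04 (SE 0.59) for Retn. It was -0.96 (SE 0.55) for Plin1, -0.32 (SE 0.13) for Plin4 and -0.12 (SE 0.58) for Lep. Without mouse SV481 Plin4 was called too (-0.39, adjusted p = 0.0262), and Adipoq, Plin1, Lep, Cfd and Retn were not. Cidec was then at -0.82 (adjusted p = 0.0110), but it was no longer called without SV434 (adjusted p = 0.0729) or SV471 (adjusted p = 0.0536). Its own level was 74.1 ± 44.5 (SD, n = 24) in Bmal1fl/fl and 46.9 ± 27.8 (SD, n = 22) in Bmal1iec-/- mice. Cidec and Plin4 were also counted in mice without Adipoq. Control mice SV396 and SV397 at CT13 had 0 for Adipoq, but 57.5 and 68.2 for Cidec and 79.4 and 128 for Plin4. Which cells these counts came from was not tested.

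Over the 46 mice, with group means removed, Pearson's r of log2 Scd1 with the summed markers was 0.81 and Spearman's rho 0.81. Permutation p was 1e-05 for each, the smallest that 100000 resamples can give, and 6e-05 after adjustment over the 6 enzymes. The r was 0.79 without the 2 mice farthest from the median (SV481 and SV434), 0.85 within controls and 0.79 within Bmal1iec-/- mice. For Fasn r was 0.71 and rho 0.64 (permutation, adjusted p = 0.00012 and 0.00054), and 0.63 without these 2 mice. Acaca (r = 0.40, rho = 0.29) and Acly (r = 0.38, rho = 0.29) each had an adjusted permutation p of 0.0629 for r and 0.146 for rho. For Scd2 r was 0.13 and for Elovl6 0.10, with rho of 0.13 and 0.12 (adjusted permutation p of 0.540 for r and 0.451 for rho). The sum includes Cidec and Plin4, and in control mouse SV398 at CT17 they alone, at 40.7 and 83.3, made up the sum of 124. No correlation with the other markers alone is given. The part of fat cells in the genotype difference of Scd1 was not tested.

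**Figure D4:**
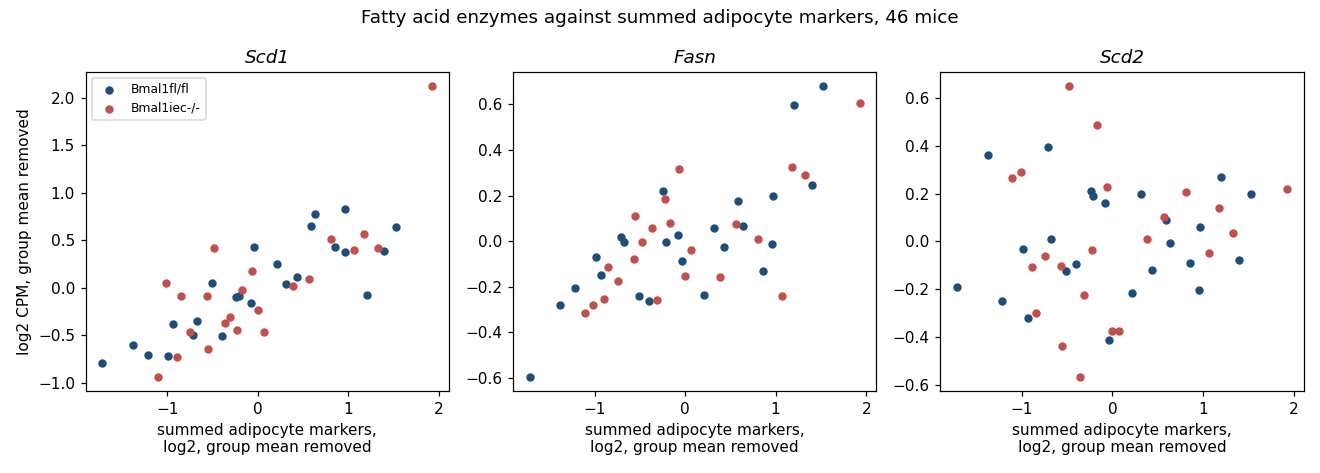
Log2 CPM of Scd1, Fasn and Scd2 (y axes) against the log2 sum of 7 adipocyte markers (x axes), both with the mean of each genotype and time removed, with 1 point for each of 46 mice. Points of both genotypes rise together for Scd1 (r = 0.81) and Fasn (r = 0.71), not for Scd2 (r = 0.13).

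At single circadian times 0 of 30 genes were called in edgeR at any time, and DESeq2 called 0 at each. Over all genes the share called was 1.76% at CT1, 0.456% at CT5, 1.78% at CT9, 4.64% at CT13, 1.09% at CT17 and 0.421% at CT21. At an unadjusted p under 0.05 there were 5, 2, 4, 4, 0 and 2 genes at these times. The smallest adjusted p was that of Insig2 at CT13. Its normalized counts were 214, 232, 232 and 207 in Bmal1fl/fl and 253, 296, 271 and 269 in Bmal1iec-/- mice, with no overlap (log2 fold change 0.30, SE 0.10, adjusted p = 0.0614). Insig2 stood at 0.29 at CT5 and 0.25 at CT9 (adjusted p = 0.311 and 0.249).

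Dhcr7 lay above controls at CT9 and overlapped them at CT13 and CT17, and it was called at none of these times. At CT9 the Bmal1fl/fl mice had 345, 289, 316 and 318 normalized counts and the Bmal1iec-/- mice 417, 399, 385 and 389, all higher (0.33, SE 0.10, adjusted p = 0.0634). At CT13 the controls had 460, 513, 330 and 393 against 357, 338, 335 and 403, where 1 control lay below all Bmal1iec-/- mice (-0.25, SE 0.10, adjusted p = 0.139). At CT17 the counts were 546, 560, 508 and 604 against 564, 502, 552 and 566.

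At CT1 Insig1 had 863, 773, 562 and 393 normalized counts in Bmal1fl/fl mice and 273 and 282 in the 2 Bmal1iec-/- mice, and SV384 and SV385 had 261 and 251. The groups did not overlap, and the log2 fold change was -1.23 (SE 0.50, adjusted p = 0.203). With all 48 mice, where 25.1% of all genes were called at CT1, 6 of the 30 were called. Insig1 (-1.28), Fdps (-1.17), Lss (-0.59) and Hsd17b7 (-0.52) were lower in Bmal1iec-/- mice, and Dhcr7 (0.39) and Srebf2 (0.33) higher. With SV385 alone left out, 9.6% of all genes and 1 of the 30 were called (Hsd17b7, -0.58, adjusted p = 0.0304). SV385 is the mouse with the low smooth muscle markers.

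Beyond time and genotype, the sterol genes varied together from mouse to mouse. With group means removed, the median Pearson's r over the 120 pairs of sterol enzymes was 0.38. It was 0.31 over the 15 pairs of fatty acid enzymes, 0.15 between the 2 sets of enzymes and -0.00 between the 30 genes and all genes. These correlations are descriptions over 46 mice, and pairs share the libraries. With Hmgcs1, r was highest for Msmo1 (0.83), Fdft1 (0.81), Insig1 (0.79), Lss (0.76), Sqle (0.72), Hsd17b7 (0.71) and Stard4 (0.70), and over 0.5 for 9 of the other 15 sterol enzymes. For Acat2, which was kept outside the set of sterol enzymes, r with Hmgcs1 was 0.67. The r with Hmgcs1 was 0.12 for Ebp, 0.11 for Dhcr7 and -0.08 for Tm7sf2, the sterol enzymes least like Hmgcs1, and -0.10 for Scd1 and -0.18 for Ggps1. Mouse SV469 was low at CT1 in Hmgcs1, Idi1, Fdft1, Sqle and Msmo1.

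**Figure D5:**
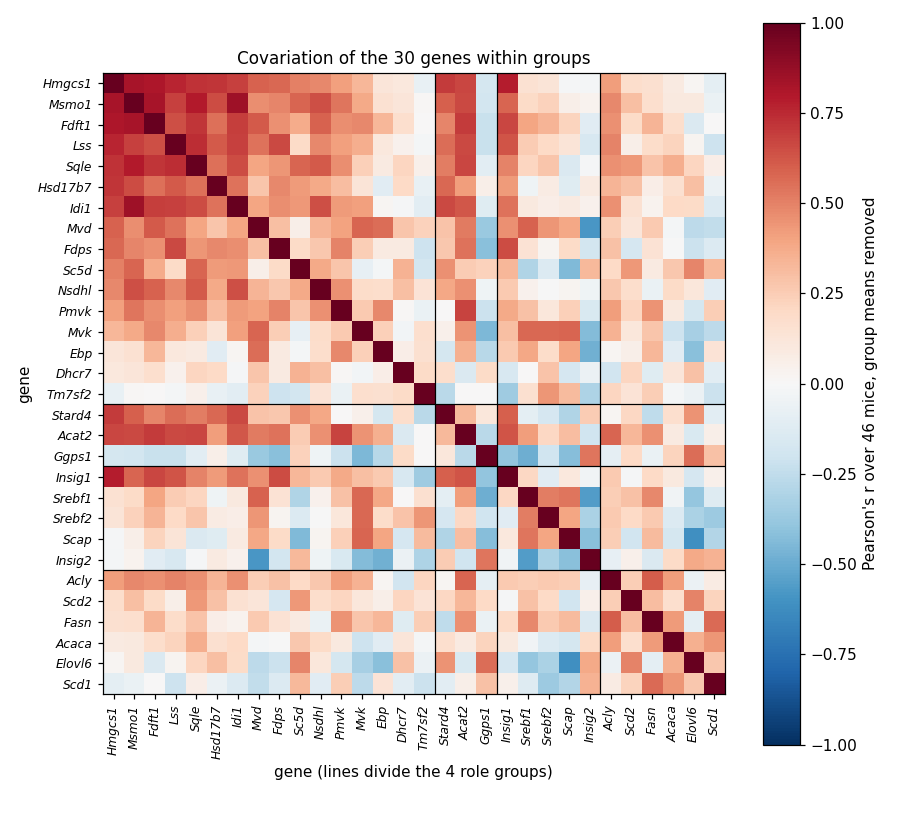
Pearson's r between each pair of the 30 genes over 46 mice, from log2 CPM with group means removed, with genes on both axes in 4 role groups parted by lines. The block of Hmgcs1, Msmo1, Fdft1, Lss, Sqle, Hsd17b7 and Idi1 is dark, and Insig1, Stard4 and Acat2 share its colour, whereas Dhcr7, Tm7sf2 and Ggps1 do not.

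Other genes of the same pathways were read beside these 30, in lists that were all tested. Cyp51, the lanosterol demethylase, was lower at night in both genotypes, by -0.49 (SE 0.12) in Bmal1fl/fl and -0.64 (SE 0.13) in Bmal1iec-/- mice. Acat1, the mitochondrial acetyl-CoA acetyltransferase, was higher in Bmal1iec-/- mice (0.10, SE 0.03, adjusted p = 0.0379). Soat1, which esterifies cholesterol, was the 1 call between genotypes among 9 genes of sterol uptake and transport (-0.16, SE 0.05, adjusted p = 0.0259). Over all genes 10.9% were called between genotypes.

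Of 21 other genes of fatty acid and lipid synthesis, 4 were called between genotypes, all lower in Bmal1iec-/- mice, where 10.9% of all genes were called and 5.63% were lower. They were Dgat2, which ends triglyceride synthesis (-0.57, SE 0.09, adjusted p = 2.67e-05), the phosphatidate phosphatase Lpin1 (-0.35), the malic enzyme Me1 (-0.21) and the desaturase Fads1 (-0.16). Dgat2 had 249.3 ± 91.5 normalized counts (SD, n = 24) in Bmal1fl/fl and 170.2 ± 45.4 (SD, n = 22) in Bmal1iec-/- mice. Calls between genotypes were 1 of 6 for LXR and efflux genes (Abcg1, -0.34), 1 of 5 for SREBP processing (Ubxn1, 0.25) and 1 of 7 for the isoprenoid branches (Pdss2, 0.21), beside 10.9% of all genes. By JTK_cycle, in Bmal1fl/fl and Bmal1iec-/- mice, 14 and 6 of the 21 lipid synthesis genes were rhythmic, 4 and 1 of the 6 LXR and efflux genes, 2 and 0 of the 7 isoprenoid genes and 1 and 0 of the 5 SREBP processing genes. Over all genes the shares were 40.6% and 15.4%. Rhythm counts of the lists of other sterol genes and of sterol uptake and transport are not given here.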

How the data were processed

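Colon RNA was sequenced by the authors from a stranded mRNA library (TruSeq) of each of 48 mice. Per the methods and the submitters' processing notes, reads were trimmed (Trimmomatic 0.39), aligned to mm10 (STAR 2.7.5c) and counted on exons at a mapping quality of at least 4 (featureCounts 1.4.6). The values the authors deposited are raw read counts per gene, not normalized in this table. Groups came from the genotype and time labels. The members and the gene lists were chosen with earlier results of these data known.

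Here the 14475 genes kept by filterByExpr were tested with edgeR 4.0.16 (TMM, quasi-likelihood F test, robust), with Benjamini-Hochberg adjustment over all of them and calls at 0.05. Normalized counts were counts over size factors of all 48 mice, from an own version of the median-of-ratios method of DESeq2. The JTK_cycle tests used such size factors of the 46 mice. Rhythms were tested with an own JTK_cycle (12 phases 2 h apart, Bonferroni over phases, then Benjamini-Hochberg over all genes). Log2 CPM carried a prior count of 2. R 4.3.3, limma 3.58.1, DESeq2 1.42.0 and Python 3.11.15 were used.

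The 46 mice were inferred from a rhythm table of the study, whose values carry their size factors. Steps were tested on simulated data. Values by mouse or group were planned for 8 landmark genes (Hmgcs1, Sqle, Fdps, Srebf1, Srebf2, Insig1, Fasn, Scd1) and for each test and direction the 4 called members of lowest adjusted p. Up to 5 genes of each other list were planned. Other genes, among them Cyp51, were chosen after their values were seen. Some genes of the pathway lists are not reported here. Alternatives were all 48 mice, 47 mice, other normalization, filters and tests, and fits that dropped 1 mouse or 1 time. Each mouse was treated as a replicate. No sequencing batch is given in the labels, so none was modelled.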

Additional observations from a re-analysis of the deposited data

Results flagged for a closer look

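Normalized counts of each of the 30 genes were screened in each of the 12 groups of 4 mice, with SV384 and SV385 included, for a mouse far from the other 3 by Dixon's ratio at the 95% level. Of 360 groups, 17 had such a mouse, and chance flags about 1 in 20 groups. In 6 the mouse was high and in 11 low, and 5 were the same control mouse at CT1, SV469. It had 551 for Hmgcs1 (next mouse 1075), 54.5 for Idi1 (159), 332 for Fdft1 (615), 250 for Sqle (387) and 313 for Msmo1 (675). These are early and middle enzymes of cholesterol synthesis, which peaked near CT1 in the other controls.

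Bmal1iec-/- mouse SV471 at CT21 appeared 3 times, at 777 for Hmgcs1 (next 531), 120 for Acat2 (91.8) and, in the other direction, 455 for Dhcr7 (565). SV384, outside the 46 mice, had 8.58 for Fdps (17.3) and 397 for Msmo1 (535) at CT1, and SV385 had 124 for Mvd (90.7). Bmal1iec-/- mouse SV481 at CT17 had 2167 for Scd1 (361), the mouse with the highest adipocyte markers of its genotype. The remaining 5 were SV437 at CT17 with 130 for Tm7sf2 (103), SV449 at CT13 with 59.5 for Hsd17b7 (64.0), SV477 at CT5 with 373 for Sc5d (298), SV399 at CT17 with 55.5 for Acat2 (77.4) and SV395 at CT13 with 195 for Ggps1 (219), all Bmal1iec-/-.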

How the results depend on the processing

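Of 132 alternative counts of called genes, 99 stayed within 1.5 times the reported count, and of 548 alternative results of single genes, for those called in some fit, none changed direction while called. A further 103 single-gene results were called in no fit and are not among them, and signs of values near 0 did change there (Srebf2 between genotypes was -0.02, and 0.02 with all 48 mice). Between genotypes, 1 higher gene became 0 with a fold of 1.5 required or with glmTreat at 1.5-fold. The 0 lower genes became 1 with all 48 mice, with 47 mice (SV384 kept, chosen after seeing the data), with the stricter filter, with limma-voom and without CT1, CT5, CT17 or CT21, and ran from 0 to 2 with each mouse left out (2 without SV481). At CT1, 0 became 6 with all 48 mice, 1 with 47 mice, 2 without the filter on low counts and 2 from CT1 mice alone. Without the filter it became 1 at CT5, 2 at CT9, 2 at CT13, 1 at CT17 and 2 at CT21, and with CT13 mice alone 1 at CT13. With mice left out it ran from 0 to 1 at CT9 and at CT13. The SE of Scd1 at CT1 was 0.13 without the filter and 0.62 with it.

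The 7 genes called between night and day in Bmal1iec-/- mice became 1 without the filter and ran from 2 to 12 with mice left out. For the change of rhythm, 0 became 1 with all 48 mice and ran from 0 to 1. The 12 rhythmic genes of controls became 20 by the cosine. The 8 of Bmal1iec-/- mice became 4 over all genes with 1 count, 17 with p adjusted over phases alone and 13 by the cosine, and ran from 3 to 10 with mice left out. The causes were not tested. No paired analysis was possible because replicate names are single mice, which groups do not share. Depth limits Fdps most, at as few as 4.82 normalized counts in a mouse, and counting error is only part of the spread between mice.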
